A study of Mus musculus with 686 samples.

Results

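The glycine and glutamate tRNAs were followed through small RNA libraries of 13 mouse tissues. They were all rows of the deposited tRNA table whose name holds the isotype Gly or Glu, which gave 46 of 408 rows, here called members, 27 of Gly and 19 of Glu. By anticodon, Gly had 13 GCC, 7 TCC, 6 CCC and 1 ACC rows, and Glu had 11 CTC and 8 TTC rows. The rule itself uses the row names and no measured value. The 686 libraries came from female mice of a single strain, BALB/cAnNTac, aged 3 or 8 months, in 3 arms. FL mice flew to the International Space Station, HGC mice were habitat ground controls housed as in flight, and VGC mice were vivarium ground controls in standard cages. In the live animal return (LAR, 348 libraries) the flight mice came back alive, and organs were dissected fresh some days after splashdown. In the ISS Term group (TERM, 338 libraries) mice were killed earlier, on orbit for FL and on Earth for the controls, and the carcasses were frozen whole and dissected later, except that the spleen was taken fresh. A group of 1 tissue, arm and collection held 2 to 10 libraries, each from a different mouse, while the tissues of 1 mouse share that mouse. Brain of LAR and pancreas of TERM came from mice of 3 months alone. The adipose tissues were gonadal (GAT), subcutaneous (SCAT), mesenteric (MAT) and brown (BAT).

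A tRNA carries 1 kind of amino acid to the ribosome and reads codons of the mRNA with its anticodon. Glycine and glutamate tRNAs are also known as rich sources of long tRNA fragments, left when ribonucleases such as angiogenin cut the anticodon loop of a mature tRNA under stress. The 5′ fragments of tRNA-Gly-GCC and tRNA-Glu-CTC are common in small RNA of blood, sperm and many tissues. The deposited table holds 1 count per tRNA gene and library, so fragments and whole tRNAs cannot be told apart in it. A higher count can also come from more RNA per cell or from more cells of a type, and bulk tissue cannot tell these apart.

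Gene copies of 1 tRNA carried the same counts in every library. The 46 rows held 16 distinct patterns of counts, 10 of Gly and 6 of Glu, while all 408 rows held 224. A sum over rows therefore weights a tRNA by its number of gene copies, and values were also computed with each pattern taken once. Gly-GCC-2 (8 rows), Gly-GCC-3-1 and Gly-GCC-4-1 were nearly equal as well, so these 3 are not separate evidence. In RefSeq (GRCm38.p6, used for names and neighbours only), Glu-CTC had 12 genes, Gly-GCC 14, Glu-TTC 8, Gly-TCC 7, Gly-CCC 6 and Gly-ACC 1. Chromosome 1 had 3 runs in which Gly-GCC, Glu-CTC and Gly-TCC genes are neighbours.

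The counts of a library were set against 2 totals. The share is the percentage of the library's tRNA counts, and CPM are counts per 1 M counts of the 7 RNA classes together (tRNA, rRNA, snoRNA, snRNA, lncRNA, miRNA and piRNA). Every gene copy enters both totals with its full count, so percentages of the 7 classes are of counts summed over rows. For these percentages no value with patterns counted once is given. A library held 1.17 to 242 M tRNA counts with a median of 15.1 M, so counting error is small beside the spread between mice for these abundant RNAs. The miRNA profile of 166 of the 686 libraries was closest to a tissue other than the one on the label, and 119 of these lay in 11 of the 44 library pools. This affected 46 of 57 MAT, 20 of 60 BAT, 15 of 58 SCAT, 7 of 60 GAT and 19 of 59 diaphragm libraries. It affected 7 of 58 liver, 10 of 57 kidney, 12 of 58 lung and 10 of 50 heart libraries. For thymus it was 9 of 58, for spleen 7 of 47, for pancreas 4 of 39 and for brain 0 of 25. All libraries were kept under their labels, and values without the 11 pools or without the 166 libraries are given for part of the results. Lists of marker miRNAs peaked in the labelled tissue for brain, diaphragm, heart, liver, lung and pancreas and in GAT for adipose tissue, while the kidney list peaked in liver.

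Glu was the largest isotype of the tRNA table and Gly the third. Pooled over all libraries, Glu held 51.4% of the tRNA counts, Val 20.3% and Gly 16.3%. The next isotypes were iMet with 3.37%, Cys with 2.97% and Asp with 2.79%, and Lys, His and Leu held 1.09%, 0.362% and 0.343%. With each pattern counted once, Glu held 30.7%, Val 29.3% and Gly 22.4%, so that the lead of Glu rested in part on the 9 copies of Glu-CTC-1. Glu, Val and Gly were the 3 largest isotypes in 676 of 686 libraries. Glu came first in 610 libraries, Gly in 59 and Val in 15. Together the 46 rows held 67.7% of the tRNA counts (53.1% with patterns counted once) and, with every copy counted, 29.9% of all counts of the 7 classes.

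Within each isotype a single anticodon carried most of the counts. Glu-CTC held 50.9% of all tRNA counts and Glu-TTC 0.514%. Gly-GCC held 12.3%, Gly-TCC 3.90%, Gly-CCC 0.117% and Gly-ACC 0.0187%. The most abundant rows were the 9 copies of Glu-CTC-1, with a mean of 20226 CPM each (lowest library 643, median 14758, highest 75470). The 8 copies of Gly-GCC-2 had a mean of 4598 (lowest 321, median 3828, highest 24561), and the 7 copies of Gly-TCC-1 a mean of 2085 (lowest 143, highest 10843). The 3 copies of Gly-GCC-1 followed with 719, the 4 copies of Glu-TTC-1 with 331 and Glu-CTC-2-1 with 327 CPM. Gly-CCC-3-1 (6.20) and Gly-CCC-2 (3.41 in each of 2 copies) were the rarest. These are CPM, not levels per length, and all 46 rows had counts in every library and passed the filter in all 26 fits of tissue and collection.

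The tissues differed in how tRNA counts were divided between Gly and Glu. In LAR, the Gly share was highest in pancreas (25.0% ± 5.96, SD, n = 28), liver (24.8% ± 6.58, n = 29) and kidney (24.3% ± 6.37, n = 29), and lowest in SCAT (12.1% ± 3.47, n = 29) and GAT (11.9% ± 5.72, n = 30). The Glu share ran roughly the other way, from 60.3% ± 7.82 in SCAT and 55.9% ± 9.82 in GAT down to 36.6% ± 6.61 in spleen (n = 21) and 36.1% ± 9.40 in pancreas. Between them stood, for Gly, brain with 21.3%, MAT with 20.9%, spleen with 20.0%, heart with 19.2%, diaphragm with 16.5% and lung with 16.1%. In the order of the 13 Gly means, all neighbours differed by less than both of their SDs except lung and SCAT. The ratio of Gly to Glu was 0.210 in SCAT and 0.243 in GAT, against 0.710 in liver and 0.764 in pancreas. Gly exceeded Glu in 22 of 348 LAR libraries, 7 of them of pancreas, 4 of liver, 4 of kidney and 0 of SCAT or GAT. With each pattern counted once this was so in 159 libraries, among them 24 of 29 of liver and 23 of 28 of pancreas but 1 of 29 of SCAT and 3 of 30 of GAT.

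**Figure D1:**
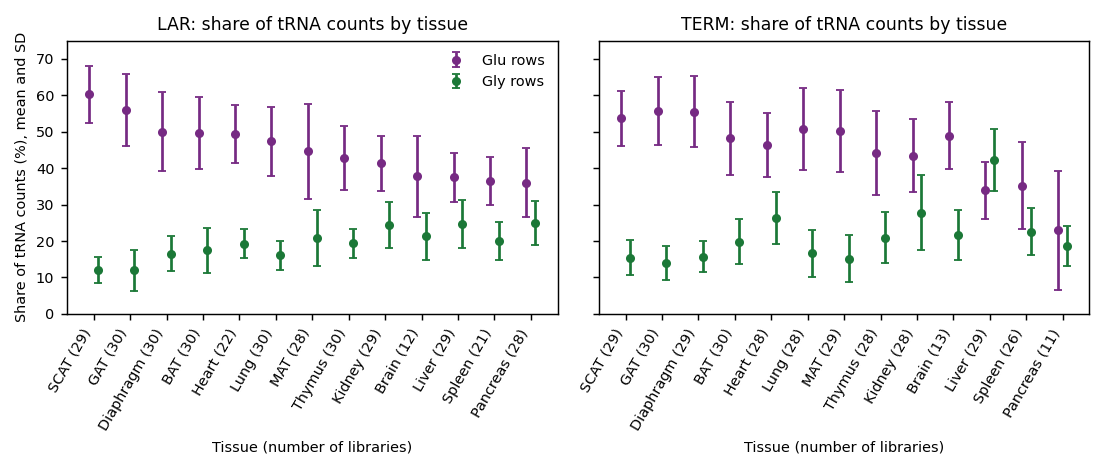
Share of all tRNA counts on Gly and Glu rows in percent, by tissue, in LAR and TERM, where points are means over libraries, bars are SDs and the number of libraries stands beside each tissue. In LAR the Gly share spans 11.9% (GAT) to 25.0% (pancreas), and in TERM liver stands above all other tissues with 42.2%.

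Counted against all 7 RNA classes, with every gene copy at its full count, Gly and Glu tRNAs weighed most in SCAT and GAT. In LAR they made up 47.6% ± 9.86 of all counts in SCAT and 44.2% ± 13.9 in GAT, against 25.5% ± 9.87 in BAT and 23.9% ± 13.9 in MAT. In liver they made up 7.08%, in spleen 5.95% and in brain 4.95%. A single brain library, VGC replicate 5, stood at 29.0%, against 1.11% to 5.80% in the other 11, whose mean was 2.76%. In CPM, the mean was 77486 for Gly and 398447 for Glu in SCAT, 71109 and 371043 in GAT, 62202 and 193156 in BAT, 26348 and 44490 in liver, and 13337 and 36172 in brain. Without the same brain library the Glu mean there was 16978. GAT and BAT differed by more than both SDs in Glu and in the combined percentage, but not in Gly. Over the 13 tissue medians of LAR (log2 CPM), the isotype most like Gly was Val (Pearson's r = 0.965), followed by Glu (0.954) and His (0.929). For Glu it was Val (0.962), then Gly (0.954) and iMet (0.953). These values describe 13 points that share libraries and the denominator of the 7 classes.

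Each tissue of LAR was tested against the mean of the other 12 with edgeR's quasi-likelihood test over all tRNA rows (Benjamini-Hochberg adjusted p under 0.05). The fit had no term for arm or mouse, and libraries of 1 mouse were treated as independent. Its p-values, here and for the single families below, do not allow for that sharing. On the CPM scale 50.4% of all row tests were called, and 387 of 598 tests of Gly and Glu rows. All 46 members were higher in GAT, where 53.2% of all rows were, and in MAT, where 70.6% were. In SCAT 44 were higher, against 44.4% of all rows, and in BAT 35, against 30.9%. All 46 were lower in spleen (70.1% of all rows) and in brain (62.5%), and 41 were lower in liver (47.8%). Most MAT libraries had another tissue's miRNA profile, so the MAT value is a value of the label. On the share scale 59.9% of all row tests were called, and 353 of the 598. This is close to the share over all rows. In GAT and in SCAT the 9 Glu-CTC-1 rows were higher and the other 37 rows lower, Glu-CTC-2-1 and Glu-CTC-5-1 among them, where 77.7% of all rows were lower in GAT and 81.9% in SCAT. In GAT, Glu-CTC-1 rose by a log2 difference of 0.37 (SE 0.060, adjusted p = 2.59e-09) and Gly-TCC-1 fell by 1.04 (SE 0.11, adjusted p = 1.87e-18). In SCAT the log2 differences were 0.49 (SE 0.060) and -0.89 (SE 0.11). BAT had 9 members higher and 20 lower, against 74.8% of all rows lower. Pancreas had 33 members higher and 9 lower, liver 27 and 9, and kidney 25 and 9, against 56.6%, 68.9% and 59.8% of all rows higher, and in these 3 tissues the 9 lower rows were the Glu-CTC-1 copies.

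Single families had their own tissue pattern beside these. Gly-GCC-1 stood out in heart, where each copy held 0.689% ± 0.294 of tRNA counts in LAR (n = 22) and 0.576% ± 0.195 in TERM (n = 28), against 0.200% to 0.356% in the other 12 tissues of LAR. The heart difference was 1.39 on the log2 share scale (SE 0.11, adjusted p = 1.06e-27, edgeR) and 1.20 in CPM (SE 0.15), and the mean share was 0.832% in the 17 LAR heart libraries with the profile of heart. Gly-GCC-2 did not follow it in heart (log2 difference in share -0.09, SE 0.11). Glu-TTC-2 had its highest LAR share in kidney, 0.193% ± 0.159 per copy, with a log2 difference of 1.24 in CPM (SE 0.16, adjusted p = 9.81e-13), while Glu-CTC-1 was lower there by 0.61 (SE 0.23). The highest single kidney library reached 0.959%, and the kidney mean was 0.174% in the 24 libraries with the profile of kidney. Gly-CCC was highest in pancreas, where the share of the family was 0.597% of tRNA counts and Gly-CCC-1 stood 1.43 above the other tissues on the log2 share scale (SE 0.14). Gly-TCC had its highest LAR share in brain, 5.54%, and its lowest in GAT, 1.79% ± 0.846, and SCAT, 1.96% ± 0.939. The heart, kidney and pancreas families in this paragraph were chosen after their values were seen.

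**Figure D2:**
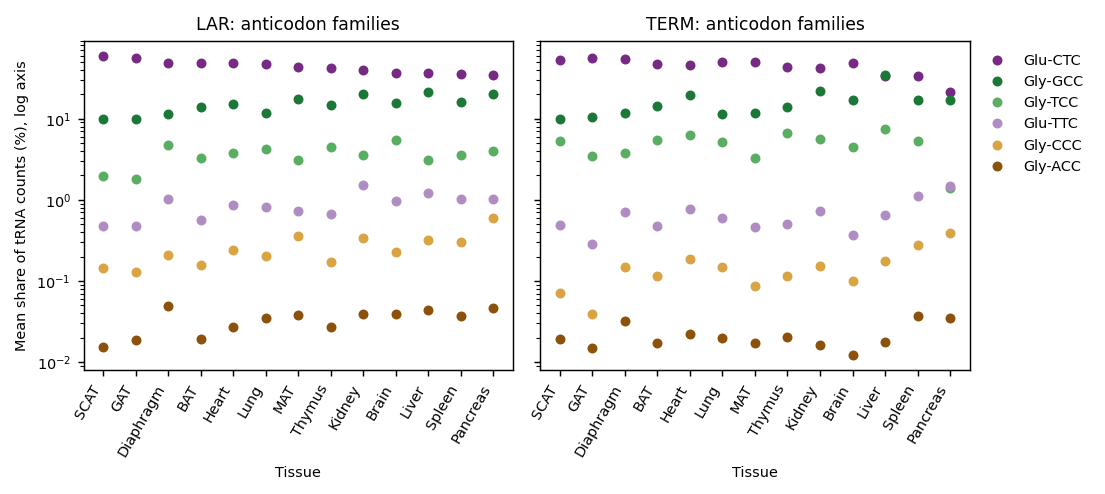
Mean share of all tRNA counts in percent (log axis) for the 6 anticodon families of Gly and Glu, by tissue, in LAR and TERM. Glu-CTC and Gly-GCC have the highest means, with Gly-TCC nearest to Gly-GCC in SCAT of TERM (5.35% and 10.0%), and among LAR tissues Gly-TCC is lowest in GAT (1.79%) and SCAT (1.96%), among TERM tissues in pancreas (1.40%).

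Whether flight changed these tRNAs was asked first in GAT and BAT of LAR, by isotype, between FL and HGC (10 libraries each, both tissues from the same mice). In CPM, both isotypes had lower means in FL. In GAT, Gly ran from 29337 over a median of 50469 to 104668 CPM in FL, from 59803 over 74753 to 110523 in HGC and from 18840 over 90886 to 104209 in VGC. Of the 10 FL libraries, 9 lay below the lowest HGC library, and FL replicate 4 lay within the HGC range and had a miRNA profile of another tissue. The log2 difference was -0.62 (2-sided permutation test, 100000 resamples, p = 0.0027, adjusted p = 0.137 over 299 tests of 23 isotypes and 13 tissues), so it did not pass. Glu in GAT ran from 120189 over 348609 to 527546 in FL and from 268024 over 453212 to 526950 in HGC, with a log2 difference of -0.48 (adjusted p = 0.325) and 2 of 10 FL libraries below the HGC range. In BAT, Gly ran from 16226 over 44444 to 68813 in FL, from 41911 over 77972 to 125304 in HGC and from 44498 over 61954 to 125465 in VGC. None of the 10 FL libraries reached the HGC median, and 4 lay below all HGC libraries. The log2 difference was -0.79 (permutation p = 0.0050, adjusted p = 0.148). Glu in BAT ran from 17990 over 122790 to 229280 in FL and from 99893 over 237223 to 301028 in HGC, with a log2 difference of -1.09 (permutation p = 0.0037, adjusted p = 0.138) and 3 FL libraries below the HGC range. The FL and HGC ranges overlapped in all 4 cases. Per 1 M counts of the classes other than tRNA, Gly and Glu in BAT passed the adjusted threshold (-1.29 and -1.60), as did Gly in GAT (-1.59). Per 1 M miRNA counts, Glu in BAT (-1.57) and Gly in GAT (-2.07) passed. Leaving tRNA out of the denominator moved the other isotypes too, since the tRNA share of all counts was lower in FL in both tissues. On the first of these scales 11 of 299 isotype tests passed, 5 in GAT and 6 in BAT, all lower in FL, and 7 on the second, 4 and 3, against 0 in CPM.

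As a share of tRNA counts, Gly and Glu did not pass either, and their FL and HGC values lay close together. In GAT, Gly held 11.2% ± 8.60 of tRNA counts in flight mice and 10.3% ± 2.35 in HGC mice (mean ± SD over 10 libraries per arm, permutation test, adjusted p = 0.975), and the Glu share was 58.5% ± 8.71 and 56.2% ± 4.59 (adjusted p = 0.795). In BAT, the Gly share was 19.4% ± 8.10 and 16.3% ± 4.68 (adjusted p = 0.712), and the Glu share 47.0% ± 11.7 and 50.0% ± 9.01 (adjusted p = 0.823). The sign of the Gly difference in GAT turned on FL replicate 4, whose Gly share was 34.4%, and it was -1.73 percentage points without that library against 0.850 with it. That of the Glu difference in BAT turned from -3.00 points to 0.574 without the 11 pools and 0.282 without the libraries of another profile. Of all isotype tests on this scale 5.35% were called, and 0 of the 26 of Gly and Glu by the permutation test, of which 2 had an unadjusted p under 0.05. The called isotypes in BAT included Asp (3.53% in FL, 2.05% in HGC, adjusted p = 0.0127) and Leu (0.536% and 0.206%), and in GAT Ser (0.183% and 0.0548%) and Ala (0.136% and 0.0708%). These minor isotypes rose as shares in FL as first tested, while Glu, Val and Gly did not pass. Of 299 isotype tests 16 were called, 6 in GAT and 8 in BAT. Without the 11 pools, or within plates, 0 were called, so calls did not set the minor isotypes apart from Gly and Glu there. Without the libraries of another profile 10 of 276 were called, 5 in GAT and 5 in BAT.

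**Figure D3:**
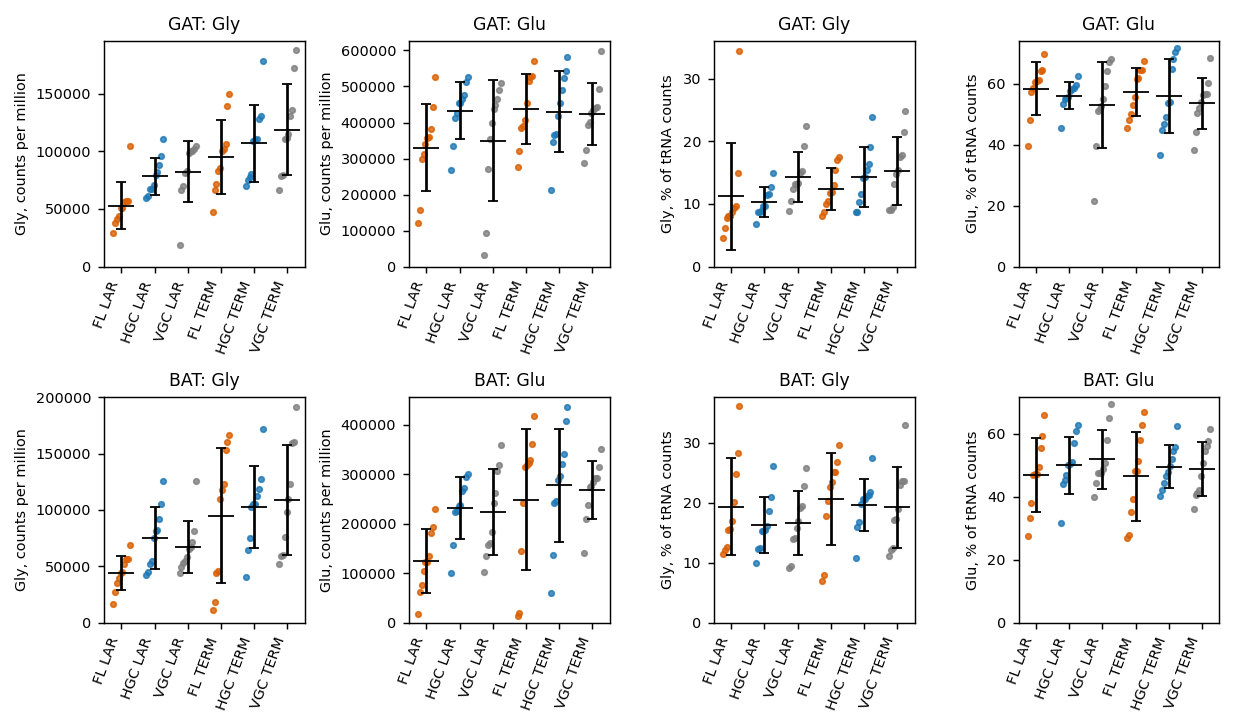
Gly and Glu CPM (7 classes) and shares of tRNA counts in percent in GAT and BAT, where each point is 1 library, the 6 columns of a panel are FL, HGC and VGC of LAR and of TERM, and bars give mean and SD. In LAR the FL means lie lower than HGC in CPM, with overlapping ranges, and the shares of the 3 arms overlap. The mean Gly share in GAT of LAR is 11.2% in FL, 10.3% in HGC and 14.3% in VGC.

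The totals behind these values moved with the arms. In GAT of LAR, tRNA made up 55.3% of the counts of the 7 classes in FL and 76.9% in HGC, rRNA 11.7% and 5.99%, miRNA 5.59% and 2.28%, and the library totals were 58.2 and 111 M. In BAT of LAR, tRNA made up 24.9% and 46.4%, rRNA 16.4% and 12.6%, miRNA 11.5% and 8.66%, and the totals were 42.1 and 51.2 M. Gly and Glu together were 38.3% ± 11.2 of all counts in FL, 51.2% ± 8.11 in HGC and 43.2% ± 18.4 in VGC of GAT, and 16.9% ± 6.78, 30.7% ± 7.47 and 29.0% ± 9.23 in BAT. In GAT of LAR 1 FL, 1 HGC and 3 VGC libraries, and in BAT 3 FL, 1 HGC and 3 VGC libraries, had the miRNA profile of another tissue. The list of 3 adipose marker miRNAs (none at 0) ran from 3690 over a median of 15116 to 20102 counts per 1 M miRNA counts in FL of GAT and from 2713 over 12776 to 19012 in HGC, and in BAT from 264 over 11764 to 20205 and from 5653 over 9949 to 24849. The 4 leukocyte marker miRNAs (none at 0) had medians of 28093 in FL and 27070 in HGC of GAT and of 14064 and 15427 in BAT. The part of depth and of these libraries in the differences was not tested beyond the values without them. Without those libraries the log2 difference of Gly in CPM in GAT was -0.78 and passed the adjusted threshold.

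Set side by side by isotype, the CPM differences of Gly and Glu were not the largest ones. In GAT, the log2 differences were -1.04 for Cys, -0.82 for Val, -0.62 for Gly, -0.61 for Lys, -0.50 for Asp, -0.49 for His, -0.48 for Glu and -0.36 for iMet, against 0.34 for Leu, 0.42 for Ala and 1.03 for Ser. In BAT they were -1.22 for Cys, -1.17 for Val, -1.09 for Glu, -0.93 for iMet, -0.85 for His, -0.79 for Gly, -0.78 for Lys, -0.38 for Ala, -0.25 for Asp and -0.12 for Ser, against 0.10 for Leu. No isotype passed the adjusted threshold in CPM (0 of 299 permutation tests over 13 tissues, 40 with an unadjusted p under 0.05), and the smallest adjusted p in BAT was that of Val, 0.0508. Gly and Glu were among 9 isotypes with lower FL means in both tissues, with Val, Cys, His, Lys, iMet, Asp and SeC (-0.07 and -0.20).

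**Figure D4:**
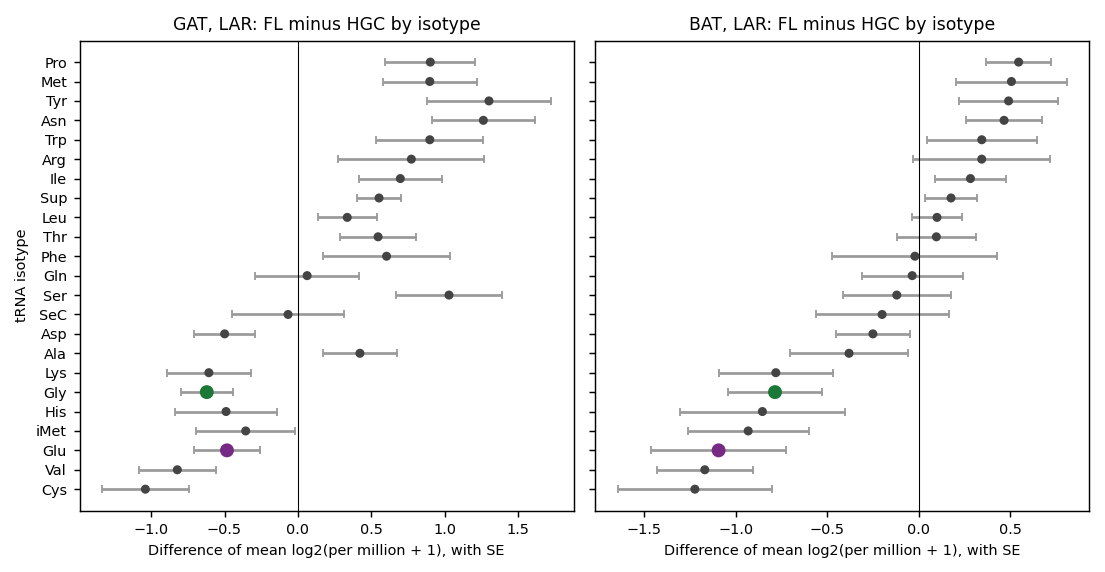
Difference FL minus HGC of LAR in log2 CPM for each of the 23 isotypes, in GAT and BAT, with bars for the standard error, Gly in green and Glu in purple. In BAT, Glu (-1.09) and Gly (-0.79) lie among the isotypes with lower FL means, and in GAT they lie at -0.48 and -0.62 while Ser lies at 1.03.

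Row by row, edgeR called part of the members. In BAT in CPM, 33.7% of all 404 tRNA rows were lower in FL, and 35 of the 46 Gly and Glu rows were, 20 of 27 of Gly and 15 of 19 of Glu. These 35 rows were 12 of the 16 distinct patterns. The median log2 change was -0.85 over the 46 rows and -0.37 over all rows. Gly-GCC-1 fell most clearly, from a median of 1061 CPM per copy in HGC (387 to 1623) to 481 in FL (259 to 606), with VGC at 734 (528 to 1080). Its log2 change was -1.24 (SE 0.23, adjusted p = 0.000750). Glu-CTC-1 fell from a median of 26103 (10868 to 33147) to 13464 (1844 to 25201), with a log2 change of -0.90 (SE 0.30, adjusted p = 0.0172), and Gly-GCC-2 by 0.85 (SE 0.25, adjusted p = 0.0091). Gly-TCC-1 did not pass (log2 change -0.37, SE 0.28, adjusted p = 0.310), nor did Glu-CTC-2-1 (-0.42) and Glu-CTC-5-1 (-0.53). Among the other isotypes, 44 of 54 Cys, 9 of 10 His, 8 of 9 iMet, 14 of 21 Val, 15 of 29 Lys and 6 of 22 Ser rows were lower, against 1 of 34 Ala and 0 of 16 Asp rows. With the library plate as a term in the fit, edgeR called 0 of the 46 rows and 0 of all 404 in BAT (median change of the 46 rows -0.63), while 123 of the 404 had an unadjusted p under 0.05. The plates held unequal numbers of the arms there, for example 1 FL and 3 HGC libraries on plates 3 and 6 and 3 FL and 1 HGC on plates 5 and 7.

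In GAT in CPM, 3.93% of all 407 rows were lower in FL and 61 were higher, and 3 of the 46 members were lower, the copies of Gly-GCC-1. This tRNA ran from 503 over a median of 821 to 1180 CPM per copy in FL and from 629 over 1840 to 2546 in HGC, with VGC at a median of 1760. Its log2 change was -1.10 (SE 0.28, adjusted p = 0.013). It was the 1 pattern of the 16 that edgeR called in CPM in both of these tissues. The median change was -0.44 over the 46 rows against 0.23 over all rows. Gly-GCC-2 (-0.56, SE 0.26, adjusted p = 0.089), Gly-TCC-1 (-0.44, adjusted p = 0.216) and Glu-CTC-1 (-0.39, SE 0.32, adjusted p = 0.298) did not pass. The call count of GAT depended on the scaling, since TMM factors over the 7 classes called 43 of the 46 rows, all lower, against 37.6% of all rows lower, and moved the median change of all rows to -0.66, with 3 of 156 called rows higher in place of 61 of 77. Without the 11 pools it was 13 of 46, against 10.1% of all rows lower, and likewise 13 without the single libraries, against 11.8%. These 13 were the Gly-GCC rows. Of other isotypes, 7 of 21 Val and 6 of 32 Lys rows were lower, while 7 of 34 Ala, 5 of 26 Leu and 3 of 22 Ser rows were higher.

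On the share scale the same rows moved little. In BAT, 47% of all rows were higher in FL and the median change was 0.79 over all rows but 0.18 over the 46 members. The 9 members that rose were the 7 copies of Gly-TCC-1 (log2 change 0.63, SE 0.21, adjusted p = 0.0124), Glu-CTC-2-1 (0.72, SE 0.24, adjusted p = 0.0124) and Glu-CTC-5-1 (0.65, adjusted p = 0.0411). Gly-TCC held 4.04% ± 1.60 of the tRNA counts of FL libraries in BAT against 2.61% ± 0.487 in HGC, 7 of 10 FL libraries lay above the highest HGC library, and VGC held 3.25% ± 1.32. Without the 11 pools or without the libraries of another profile edgeR called 0 members in BAT on this scale, with 163 and 178 of the 404 rows at an unadjusted p under 0.05. In GAT, 21.9% of all rows were higher, with a median change of 0.78, and 0 of the 46 members were called by edgeR (median change 0.12). Without the pools or without the libraries of another profile the 3 copies of Gly-GCC-1 were called there, lower in FL (log2 change -0.58, SE 0.22, adjusted p = 0.037, and -0.60, SE 0.20, adjusted p = 0.014), where 9 and 15 of the 407 rows were lower and 137 and 171 higher. As first fitted, 173 of the 407 rows, members or not, had an unadjusted p under 0.05. By anticodon, 4.52% of 663 permutation tests were called on this scale over the 13 tissues, and 1 of them was a member, Gly-TCC in SCAT (2.16% in FL and 1.5% in HGC, adjusted p = 0.045). In SCAT of LAR 4 of 9 FL and 2 of 10 HGC libraries had the miRNA profile of another tissue, and no value without them is given.

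The other tissues of LAR gave no called member in CPM or as a share in FL vs. HGC with edgeR as first fitted. Over all 13 tissues 831 of 5260 tests in CPM had an unadjusted p under 0.05 and 228 were called. Kidney was the exception under alternatives, where 21 (DESeq2), 31 (without the 11 pools), 38 (without the libraries of another profile) and 38 (TMM) of the 46 rows were lower in FL. The kidney Glu level ran from 14370 over a median of 29379 to 68038 CPM in FL and from 25363 over 54321 to 512988 in HGC, where a single library with 84.0% tRNA set the upper end. The log2 difference of Glu in kidney was -1.22 and that of Gly -0.81 (permutation tests, both adjusted p = 0.259). Over all 403 kidney rows, 15.4%, 46.2%, 48.6% and 46.2% were lower under these alternatives. In spleen 9 members were lower with the plate as a term, against 53.6% of all rows. In liver the Gly share ran from 21.7% over 27.1% to 45.1% in FL (n = 10) and from 17.7% over 21.4% to 27.2% in HGC (n = 9), and all 10 FL libraries lay above the HGC mean (28.4% ± 6.98 and 21.4% ± 3.22, exact permutation test, p = 0.0063, adjusted p = 0.0856). Heart Glu was 54.3% ± 8.03 in FL and 44.0% ± 3.04 in HGC (n = 6 each, exact permutation test, p = 0.0130, adjusted p = 0.155). Over the 13 tissues of LAR, the FL mean of the Gly share was above that of HGC in 9 and that of the Glu share in 6, GAT among the 9 with a sign that rests on 1 library. In CPM of LAR these counts were 5 and 5, and in TERM they were 3 and 7 as a share and 5 and 8 in CPM.

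Against VGC no Gly or Glu row was called in either collection (edgeR, 0 of 598 on both scales). Of the rows of any isotype, 14 of 5260 in CPM and 134 as a share were called in LAR, and 45 and 49 of 5270 in TERM, while 841 in LAR in CPM had an unadjusted p under 0.05. In BAT of LAR the log2 differences in CPM of FL and VGC were -1.0 for Glu (permutation test, adjusted p = 0.365) and -0.64 for Gly (adjusted p = 0.296), and in GAT they were 0.14 (adjusted p = 0.973) and -0.60 (adjusted p = 0.763). Between HGC and VGC of LAR, 3 of the 598 tests were called as a share, 2 in GAT and 1 in MAT, all lower in HGC, where 6.54% of all row tests were. In TERM, FL vs. HGC called 2 of 598 member tests in CPM, the 2 copies of Gly-CCC-1, higher in FL in spleen, where 4.47% of all rows were higher. That count was 0 with plate as a term, with the replicate block, without the pools, with identical rows merged and with TMM, 2 with DESeq2 and with Wilcoxon tests, and 17 without the libraries of another profile, against 12.4% of all rows. As a share it called 0 of 5270 tests (edgeR, 362 with an unadjusted p under 0.05). In GAT of TERM, Gly ran from 46907 over 92762 to 149630 CPM in FL and from 70223 over 109419 to 178434 in HGC, with no call. Gly-GCC-1 had medians of 772 in FL and 954 in HGC of GAT there (log2 change -0.15, SE 0.23).

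Whether flight differed between LAR and TERM was tested directly. By isotype, 0 of 299 permutation tests of this interaction were called on either scale, and of the 26 of Gly and Glu 0 as a share and 2 in CPM had an unadjusted p under 0.05. In GAT and in BAT edgeR called 0 of 46 rows in CPM, with 7 rows in each at an unadjusted p under 0.05. In CPM, edgeR called lower FL values in LAR than in TERM for 27 of the 46 rows in kidney, where 18.5% of all rows were called, and for 27 in spleen, where 52% were. The median difference of the 46 rows was -1.39 in kidney and -1.39 in spleen, against -1.10 and -1.51 over all rows. In kidney the calls were 15 Glu rows and 12 Gly rows, and in spleen 2 and 25. As shares, edgeR called 0 of 598 member tests, 38 of which had an unadjusted p under 0.05. The spleen Gly level was 13236 CPM at the median of FL and 14980 of HGC in LAR, and 29560 and 15147 in TERM. Its log2 difference of FL and HGC was -0.50 in LAR (exact permutation test, adjusted p = 0.529) and 0.86 in TERM (adjusted p = 0.595), opposite in sign and called in neither. In kidney the medians were 19090 and 27037 in LAR and 76291 and 70130 in TERM. The kidney count was 8 without the 11 pools (31.5% of all rows), 18 without the libraries of another profile (49.2%) and 0 with plate as a term (0 of 401 rows). That of spleen was 27, 27 and 38, where 48.0%, 45.1% and 58.0% of all rows were called.

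Age was compared between 8 and 3 months within arms. By isotype 0 of 276 permutation tests were called in each of the 2 collections and on each scale, and the interaction of age and flight in LAR gave 0 of 276 as well. Of the 24 tests of Gly and Glu per family, 1 in LAR, 2 in TERM and 0 of the interaction had an unadjusted p under 0.05 on each scale. In GAT of LAR at 3 months the Gly level was 45826 ± 7345 CPM in FL and 81833 ± 19426 in HGC, and at 8 months 59605 ± 27596 and 74577 ± 13790 (SD, n = 5 each). In BAT it was 33543 ± 11986 and 68420 ± 20730 at 3 months and 54647 ± 10427 and 82411 ± 33683 at 8 months, so the FL mean was the lower one at both ages in both tissues. The 8-month FL mean of GAT includes FL replicate 4 with 104668 CPM and the miRNA profile of another tissue, and no mean without it is given. Row by row, edgeR called 9 members higher at 8 months in kidney of LAR, where 27% of all rows were higher, namely Glu-TTC-1, Glu-TTC-2, Gly-CCC-2 and Gly-CCC-3, and 0 without the pools or with TMM. In spleen of TERM 16 members were higher, against 6.2% of all rows, the 9 copies of Glu-CTC-1 (log2 change 1.90, SE 0.55, adjusted p = 0.029) and the 7 of Gly-TCC-1 (1.23, SE 0.31, adjusted p = 0.014). Without the pools 0 members were called there, and with TMM 32, against 30.5% of all rows. In MAT of TERM 11 members were lower as a share, against 16% of all rows, led by Gly-CCC-1 (-1.30, SE 0.28, adjusted p = 0.0077), and 8 were lower in CPM, against 20.4%. Without the pools 6 were lower as a share, against 7.37% of all rows, and 11 in CPM, against 26.0%. Thymus of LAR added 2 members that were higher in CPM, against 17.6% of all rows, which became 12 without the pools, against 33.2%, and 0 with TMM. In SCAT of TERM 1 member was higher as a share, against 23.3%, and in spleen of TERM 3 were lower, against 14.6%, and both counts were 0 without the pools. In BAT of LAR the 2 copies of Gly-CCC-2 were higher in CPM without the pools (2 of 404 rows) and with TMM (17 of 404), and 0 members as first fitted.

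More Gly and Glu rows were called between the 2 collections, with all 3 arms in the comparison, than between 2 arms of 1 collection, which hold fewer libraries. The collections differ in anaesthesia, in the time of killing and in the freezing of whole carcasses in all 3 arms, and these cannot be told apart. Time on orbit and return to Earth differ in FL alone, since HGC and VGC mice did not fly. In pancreas and brain the ages differ as well, since pancreas of TERM and brain of LAR are of 3 months alone. Within arms, 42.8% of 299 isotype tests were called in CPM (permutation test, stratified by arm) and 49.8% as a share. Gly was higher in CPM in TERM in all 13 tissues, by 0.41 in SCAT, 0.51 in spleen, 0.61 in BAT, 0.62 in GAT, 0.93 in heart, 1.36 in kidney, 1.42 in pancreas, 2.46 in brain and 2.65 in liver on the log2 scale. Each of these 13 differences passed the adjusted threshold. Glu differences were above 0 in 12 tissues and passed in 7, by 2.84 in brain, 1.71 in liver, 1.33 in MAT and 1.29 in kidney among them. In GAT the Glu difference was 0.35 (adjusted p = 0.0829) and in SCAT -0.11 (adjusted p = 0.616). As a share, Gly gained 17.5 percentage points in liver (adjusted p = 0.0001) and 7.18 in heart, and lost 5.71 in MAT and 6.34 in pancreas. Glu gained 11.3 points in brain and lost 13.2 in pancreas and 6.59 in SCAT. At 3 months alone, the Glu share was 37.7% in LAR and 47.6% in TERM of brain (n = 12 and 8), and in pancreas Glu was 33.8% and 23.0% and Gly 25.3% and 18.6% (n = 15 and 11), with no test.

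Liver had the largest difference in Gly share of the 13 tissues. Its Gly share was 28.4%, 21.4% and 24.1% in FL, HGC and VGC of LAR, and 40.2% ± 7.36, 43.0% ± 9.41 and 43.7% ± 9.59 in TERM (SD, n = 10, 10 and 9), so the shift was present in all 3 arms. Gly exceeded Glu in 21 of 29 liver libraries of TERM and in 4 of 29 of LAR, and their ratio rose from 0.710 to 1.36 (median in TERM 1.19, 0.366 to 3.30). Without the libraries of another profile the mean Gly share was 25.3% in LAR and 43.7% in TERM. Over the same collections tRNA rose from 11.2% to 37.0% of the counts of the 7 classes in liver. Gly-TCC-1 rose by 3.02 (SE 0.21) in CPM in liver, Gly-GCC-2 by 2.55 (SE 0.18) and Glu-CTC-1 by 1.60 (SE 0.22). As shares, Gly-TCC-1 rose by 1.27 (SE 0.093) and Gly-GCC-2 by 0.75 (SE 0.11), the Glu-CTC-1 difference was -0.11 (SE 0.088, adjusted p = 0.210), and Glu-CTC-2-1 fell by 1.71 (SE 0.16). Gly-GCC-1, which shares its anticodon with Gly-GCC-2, fell by 0.64 as a share (SE 0.13).

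**Figure D5:**
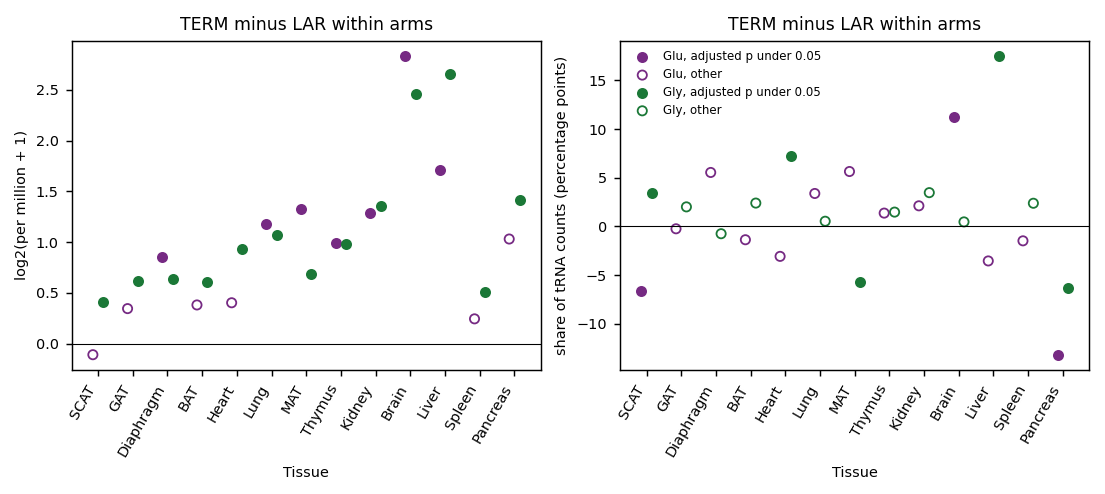
Difference TERM minus LAR within arms for Gly and Glu in each tissue, in log2 CPM and in percentage points of the tRNA share, with filled points for a permutation-adjusted p under 0.05. Gly lies above 0 in CPM in all 13 tissues, and its share differs most in liver with 17.5 points.

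Across tissues, edgeR called 351 of 598 member tests between TERM and LAR in CPM, 329 of them higher in TERM, where 40.1% of all row tests were called. In liver 45 of 46 were higher, against 41.6% of all rows, in brain 46, against 49.6%, and in lung 38, against 30.8%. In spleen edgeR called 0 members, with 20 at an unadjusted p under 0.05, and 2.24% of all rows. As a share 282 were called, 92 higher and 190 lower, where 56.8% of all row tests were called. Gly-TCC-1 rose as a share in 9 of the 13 tissues, namely in GAT (log2 change 0.94, SE 0.14), SCAT (1.46, SE 0.15), BAT (0.76, SE 0.15), heart (0.72, SE 0.11), liver, kidney (0.65, SE 0.13), lung (0.29, SE 0.12), spleen (0.55, SE 0.15) and thymus (0.59, SE 0.13). It fell in diaphragm (-0.33, SE 0.14) and in pancreas (-1.57, SE 0.24), and did not pass in MAT and brain. In SCAT the Gly-TCC share was 1.96% ± 0.939 in LAR and 5.35% ± 2.04 in TERM, and in pancreas 4.03% ± 1.79 and 1.40% ± 0.605. Gly-GCC-1 fell as a share in GAT, SCAT, MAT, diaphragm, liver, kidney, lung, thymus and brain, in diaphragm along with Gly-TCC-1.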

How the data were processed

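As the study's methods state, small RNA libraries were made with an MGIEasy kit, sequenced and mapped against GRCm39 with miRMaster. The authors deposited 1 table per RNA class, with raw counts per feature and library for 6 classes and estimated counts for miRNA, of which 0.790% carry a fraction. No table was normalized, and blanks were read as 0. The tables for circRNA and scaRNA were not used here, and 0 columns were left unmatched.

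Shares were taken over the tRNA counts of a library, and CPM (counts per 1 M counts) over the 7 classes, with 1 added before log2. Isotype and anticodon values were compared by 2-sided permutation tests of means, exact where an arm had under 10 libraries and otherwise with 100000 resamples, with Benjamini-Hochberg adjustment over isotypes (or anticodons) and tissues. Rows were tested with edgeR 4.0.16 (limma 3.58.1, R 4.3.3) per tissue and collection, with the 3 arms as groups and either total as offset. The fit of tissues against each other held all LAR libraries, without a term for arm or mouse. Rows had at least 5 reads in 10% of the libraries of an arm, and p-values were adjusted over all rows of a fit at 0.05. DESeq2 1.42.0, TMM, Wilcoxon rank-sum tests and the other alternatives are given in the closing section. The permutation tests used numpy 2.4.6 under Python 3.11.15 and were checked against scipy 1.17.1 on simulated data. Tables were handled with pandas 2.3.3, and plots drawn with matplotlib 3.10.9. On counts simulated for FL vs. HGC in GAT of LAR on the CPM scale, edgeR called 100% of rows changed by 2 on the log2 scale, 54% and 61.2% of those changed by -1 and 1, and 0.962% of unchanged rows.

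The members and lists were chosen with earlier results of these data known. Rows named are, per isotype, the 3 with the highest mean and those with the smallest adjusted p in GAT and BAT of LAR, and others are named as chosen after their values were seen, or because a count of calls consists of them. Tissue profiles used 730 miRNAs whose median in their highest tissue was over 2-fold the middle one of the tissue medians, and the 11 pools left out are those with more than 1 in 3 libraries of another profile. Pools and plates come from the study's supplementary sample list (44 pools, 8 plates). Mice of different arms with the same number are different animals. Every same-numbered pair deviated together (r over 0.1) in 2 of 52 sets of tissue, collection and scale only, so the numbers do not pair the samples.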

Additional observations from a re-analysis of the deposited data

Results flagged for a closer look

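Within the 48 groups of 1 arm, collection and measure in GAT and BAT, 4 held a library far from the others by Dixon's criterion, which flags about 1 in 20 groups by chance. They came from 3 libraries, 2 of them with the miRNA profile of another tissue. In GAT of LAR, FL replicate 4 had the highest Gly share, 34.4%, where the next FL library had 15.0%, and the highest Gly level, 104668 CPM, where the next had 57066. VGC replicate 4 of GAT in LAR had the lowest Gly level of its group, 18840, where the next had 66349. In BAT of LAR, VGC replicate 12 had the highest Gly level, 125465, where the next had 81191, and its miRNA profile was that of BAT, in a pool that held many libraries of other profiles.

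The effect of flight differed between LAR and TERM in CPM for 27 Gly and Glu rows in kidney and 27 in spleen by the edgeR interaction term, where 18.5% and 52% of all tRNA rows were called, so that the 27 of 46 in spleen lie near the share of all rows. All of these rows had lower FL values relative to HGC in LAR than in TERM. Neither tissue had a called isotype in the permutation test of the same interaction. The part of plate, pool and libraries of another profile in the kidney count is given by the values without them in the report.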

How the results depend on the processing

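In LAR, for FL minus HGC, the Gly share in GAT was 0.850 percentage points and turned to -1.18 without the 11 pools, -1.47 without the libraries of another profile and -1.51 within plates, and the Glu share in BAT turned from -3.00 to 0.574 and 0.282 without those pools or libraries. In TERM, where no difference was called, the Glu share in GAT turned to -2.28, -1.31 and -0.961 under the same 3 settings, Gly and Glu shares in BAT to -2.85 and 1.90 within plates, the log2 difference of Glu in GAT to -0.0262 without the pools and -0.148 within plates, and that of Gly in BAT to 0.300 and 0.334 without the pools or libraries. The difference of Gly in CPM in GAT of LAR passed the threshold without the pools (-0.72) or libraries (-0.78), per 1 M counts of the classes other than tRNA (-1.59) and per 1 M miRNA counts (-2.07). In BAT, Gly passed per 1 M counts of the other classes (-1.29), and Glu on that scale (-1.60) and per 1 M miRNA counts (-1.57). The causes were not tested.

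Leaving out 1 library at a time, the differences in LAR ranged, for shares in percentage points, from -1.73 to 1.58 for Gly and 1.05 to 4.4 for Glu in GAT, and 1.21 to 4.18 and -5.09 to -0.839 in BAT. In CPM (log2) they ranged from -0.74 to -0.54 and -0.57 to -0.33 in GAT, and -0.87 to -0.64 and -1.22 to -0.81 in BAT. Gly in GAT passed without FL replicate 4 (adjusted p = 0.0065). In TERM, shares ranged from -2.46 to -0.777 and -0.823 to 3.08 in GAT and from -0.0426 (and -0.0154) to 2.47 and -5.43 to -0.979 in BAT, and log2 levels from -0.27 to -0.08 and -0.0650 (and -0.00298) to 0.112 in GAT and -0.59 to -0.17 and -0.80 to -0.17 in BAT. In pancreas of TERM without FL replicate 4, 9 members were called on either scale in place of 0, among 30 of 406 rows in CPM (7.39%) and 24 as a share (5.91%).

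Counts of called rows moved more. Over the 13 tissues of LAR in CPM, 228 tRNA rows were called for FL vs. HGC, and 237 with plate as a term, 402 without the pools, 483 without the libraries, 516 with TMM and 482 with DESeq2. Of these, Gly and Glu rows were 38, and 12 with plate as a term, 69 and 78 without pools or libraries, 120 with TMM and 59 with DESeq2. In GAT the 3 (16 of 407 rows lower) became 13 and 13 (41 and 48), 43 with TMM (153) and 17 with Wilcoxon rank-sum tests (44), and in BAT the 35 (136 of 404) became 0 with plate (0) and 23 with Wilcoxon tests (94). As a share, the 9 members of LAR were BAT rows higher in FL, and without pools or libraries BAT had 0 and 0 (140 and 149 of 404 rows higher), while 3 and 3 other members, copies of Gly-GCC-1, were lower in GAT (9 and 15 of 407 rows lower). In TERM in CPM, the 63 rows became 140 with plate, 34 without the pools, 28 with TMM and 32 with Wilcoxon tests, and the 2 members 0 with plate, without the pools, with identical rows merged (56 rows) and with TMM, and 17 without the libraries (74 rows). As a share, 0 rows became 47, 160 and 72 with plate and without pools or libraries, and 9 members were called with plate. For 8 against 3 months in CPM, LAR had 11 members (180 of 4860 rows), in kidney and thymus, and with TMM 2 others, in BAT (101). TERM had 24 (119 of 4864), 11 without the pools (107) and 45 with TMM (282). As a share, TERM had 15 (218) and 6 without the pools (31). The kidney interaction of flight and collection went from 27 (74 of 401 rows) to 8 without the pools (126 of 400) and 0 with plate (0), settings chosen after the data were seen.

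With the number of the mouse as a replicate block, although the numbers do not pair the samples, 31 member rows were called in LAR in CPM (GAT 3 among 35 of 407 rows, BAT 28 among 119 of 404) and 8 as a share, all in BAT among 202 of 404. In TERM 18 of all rows were called in CPM, 0 of them members, and 7 as a share. Totals of 9.15 to 428 M counts leave little counting error for these abundant tRNAs, so the spread between mice and the libraries of another profile limit the comparisons.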
